A study of Danio rerio with 6 samples.

Results

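Melanin synthesis genes were examined in whole zebrafish larvae at 72 hours post-fertilization (hpf), and 10 gene IDs out of the 32520 in the count table made up the group. The genes were chosen by name: *mitfa* and *mpv17*, the genes mutated in *casper* fish, and 8 genes whose products sit in the melanosome (*pmela*, *dct*, *tyr*, the pair of *tyrp1* copies, *slc24a5*, *oca2* and *slc45a2*), which are called the melanosomal genes here. The rule used names and no expression value, although earlier results of these data were known when it was written. Poly-A RNA was sequenced in 3 libraries of wild-type and 3 of *miR-34a-/-* embryos, and every library came from 30 whole embryos pooled together. Both genotypes were in the *casper* background, so the controls carry the pigment mutations as well. The mutant line derives from a CRISPR/Cas9 deletion of *miR-34a*, a microRNA gene switched on by p53. It was kept as a separate homozygous line, and wild-type embryos were therefore not siblings of the mutants.

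Melanin is made inside melanosomes, organelles related to lysosomes, in which tyrosinase oxidizes tyrosine and the tyrosinase-related enzymes act on the later intermediates, while Pmel fibrils give the pigment a scaffold and membrane transporters set the ions and pH. In the zebrafish larva melanin is found in neural crest-derived melanophores of the body and in the retinal pigment epithelium of the eye. The transcription factor Mitfa is required for melanophores but not for the pigment epithelium. *casper* fish combine the *nacre* mutation of *mitfa* with the *roy* mutation of *mpv17*, which removes iridophores, and so lack body melanophores but keep dark eyes. As libraries were made from whole larvae, the cells that gave the reads could not be told apart, and a smaller number of pigment cells could not be told apart from less RNA per cell.

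Of the 10 IDs, 7 matched their symbol exactly, and the ID of *mitfa* (ENSDARG00000003732) was taken from a gene list of the study. The remaining 2 IDs share the symbol TYRP1, and which of them is *tyrp1a* and which *tyrp1b* was not resolved, so they are given by ID. All 10 IDs passed the filter on low counts. Total counts ran from 10273343 to 16369150 per library. The genotype labels could not be checked on the deleted gene, as MIR34A had 0 counts in all 6 libraries. *miR-34a-/-* replicate 1 stood apart in its photoreceptor genes, whose summed level was 742.3 CPM (counts divided by the scaled library size, on the usual scale) against 1195 to 2409 CPM in the other libraries, and results are also given without it where that matters. Library sizes for CPM were scaled by TMM, the trimmed mean of log ratios between libraries. Levels of different genes were not ranked, since transcript lengths were not used here.

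None of the 10 genes was called between genotypes, with a call defined as an adjusted p-value under 0.05 and a fold change above 1.5 in the edgeR quasi-likelihood test; over all 19240 genes tested, 1.88% were called. All 8 melanosomal genes had lower fitted levels in *miR-34a-/-*, with log2 fold changes from -0.54 to -0.07, whereas *mitfa* and *mpv17* had higher ones, at 0.51 and 0.43. Of the 19240 genes tested, 9992 were fitted lower. The 8 genes were measured in the same libraries, so their shared sign is not 8 independent observations. The median of the 8 melanosomal genes was -0.27, against -0.01 over all genes tested. At an unadjusted edgeR p-value under 0.05 there were 4 of the 10 (*mitfa*, *dct*, *oca2* and *tyrp1* ENSDARG00000056151), where 15.3% of all genes tested had such a value. The DESeq2 Wald test called 0 of the 10, beside 1.93% of all genes tested. It gave 3 at an unadjusted p-value under 0.05, a level at which its share over all genes was not taken. The genotypes did not overlap for 5 of the 10 genes, 4 lower and 1 higher in the mutant, beside 21.2% of all genes tested.

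**Figure D1:**
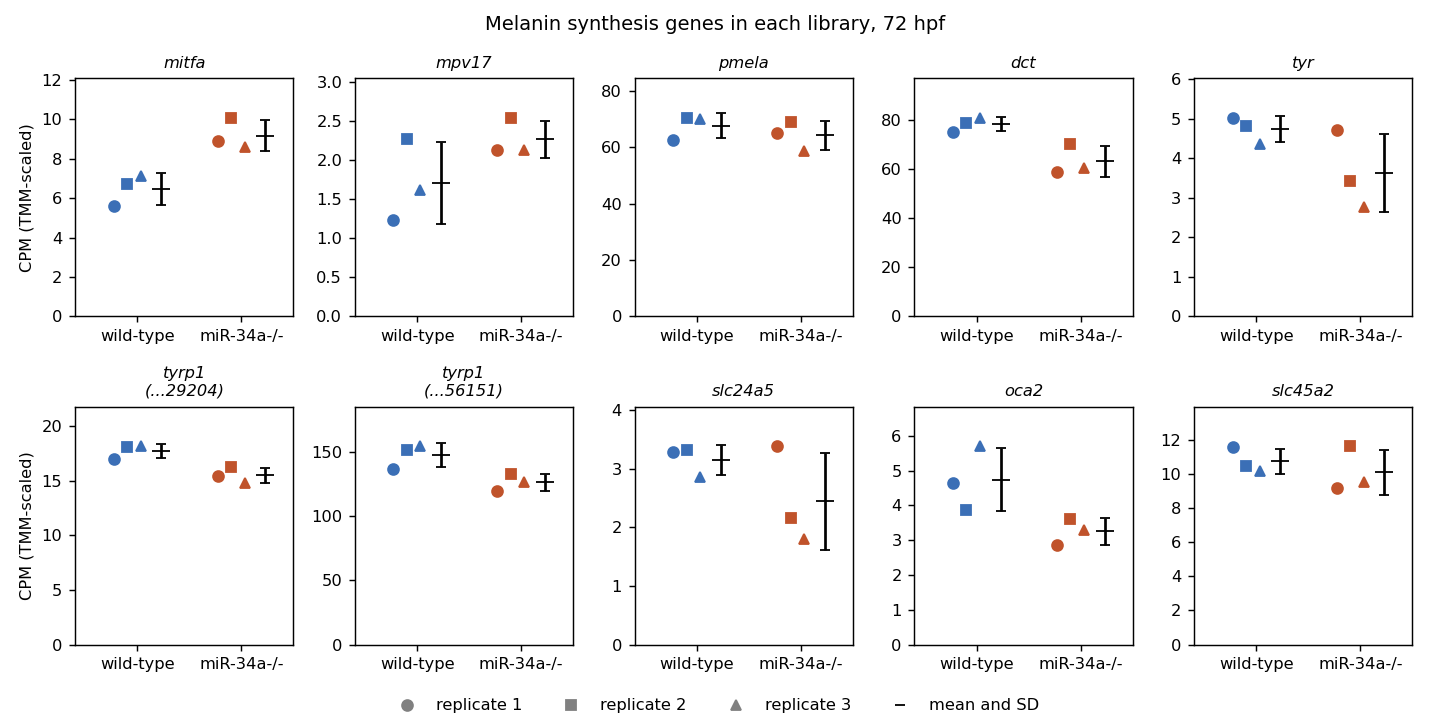
Level of each of the 10 melanin synthesis genes in CPM (TMM-scaled, linear axes from 0) in the 3 wild-type (blue) and 3 *miR-34a-/-* libraries (orange), with replicates by symbol and the mean ± SD beside them. Mutant points lie wholly above wild-type points for *mitfa* and wholly below for *dct*, *oca2* and both *tyrp1* IDs.

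*mitfa*, the regulator of melanophore fate, gave transcripts in every library although *casper* larvae lack body melanophores. Its level was 5.58, 6.72 and 7.13 CPM across wild-type replicates 1, 2 and 3, and 8.90, 10.1 and 8.57 CPM across *miR-34a-/-* replicates 1, 2 and 3. All mutant libraries were above all wild-type libraries, as held in this direction for 11% of genes tested. The means were 6.48 ± 0.80 and 9.18 ± 0.79 CPM (SD, n = 3 per genotype). The log2 fold change was 0.51 ± 0.16 (SE; 95% interval 0.16 to 0.86), with an edgeR adjusted p-value of 0.148. Without *miR-34a-/-* replicate 1 the log2 fold change was 0.53 and the adjusted p-value 0.0457, which is under 0.05 but below the 1.5-fold threshold. The gene rested on 71 to 133 counts per library. The other ID that carries the symbol MITF, ENSDARG00000037833, had 3 to 7 counts per library and was not tested.

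*mpv17* encodes a protein of the inner mitochondrial membrane and rested on 17 to 33 counts per library. It was at 1.24, 2.27 and 1.62 CPM across wild-type replicates 1, 2 and 3, and at 2.14, 2.54 and 2.13 CPM in the mutant replicates. Wild-type replicate 2 lay within the range of the mutant libraries, and the lowest library had 17 counts (95% exact Poisson interval 9.90 to 27.2). The log2 fold change was 0.43 ± 0.28 (SE; 95% interval -0.20 to 1.07, edgeR adjusted p = 0.508). Counts per gene do not show whether the reads came from intact transcripts of either mutated gene.

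The melanosome scaffold was examined next. *pmela*, whose protein forms the fibrils on which melanin is laid down, was at 62.6, 70.4 and 70.1 CPM across wild-type replicates 1, 2 and 3, and at 65.3, 69.0 and 58.7 CPM in *miR-34a-/-* replicates 1, 2 and 3. The genotypes overlapped and the log2 fold change was -0.07 ± 0.08 (SE), with a 95% interval of -0.26 to 0.11 that lies within the 1.5-fold limits (edgeR adjusted p = 0.721). Its paralog *pmelb* averaged 87.8 ± 9.0 CPM in wild-type libraries and 65.7 ± 5.4 CPM in mutant ones (n = 3; log2 fold change -0.42 ± 0.09 SE, edgeR adjusted p = 0.0503). The ratio of *pmelb* to *pmela* was 1.24, 1.30 and 1.35 in the wild-type libraries and 0.921, 1.03 and 1.12 in the mutant ones, without overlap. No test was made on this ratio. As *pmelb* was itself lower in all mutant libraries, the ratio is not a result separate from the level of *pmelb*. How reads shared by the 2 copies were assigned is not stated.

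Among the enzymes, *tyr* encodes tyrosinase, which catalyses the first and rate-limiting steps. It was at 5.02, 4.83 and 4.37 CPM across wild-type replicates 1, 2 and 3, and at 4.72, 3.42 and 2.77 CPM in *miR-34a-/-* replicates 1, 2 and 3. Mutant replicates 2 and 3 were below every wild-type library, while mutant replicate 1 lay within the wild-type range. The log2 fold change was -0.40 ± 0.23 (SE; 95% interval -0.91 to 0.11, edgeR adjusted p = 0.443). It was -0.64 without mutant replicate 1 (adjusted p = 0.0655). *tyr* is on the study's list of predicted miR-34 targets, but it was fitted lower, not higher, in the mutant. That list was read here only in part, so nothing is said of the other genes and *tyr* is not set apart from them. For genes up-regulated in the mutant at this stage, the paper reports no significant overlap with the predicted targets. Whether miR-34a acts on *tyr* was not tested.

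*dct* encodes dopachrome tautomerase, the enzyme that acts on the intermediate dopachrome. Its level was 75.3, 78.9 and 80.9 CPM across wild-type replicates 1, 2 and 3, and 58.8, 70.4 and 60.5 CPM in the mutant replicates. Every mutant library was below every wild-type library, as held in this direction for 10.2% of genes tested. With means of 78.4 ± 2.9 and 63.3 ± 6.2 CPM (SD, n = 3), the log2 fold change was -0.31 ± 0.08 (SE; 95% interval -0.49 to -0.12). The edgeR adjusted p-value of 0.0982 was the lowest among the 10 genes. It was under 0.05 in 3 of 13 alternatives, at 0.0361 without *miR-34a-/-* replicate 1, 0.0211 with a term for the photoreceptor value of each library and 0.0422 with the likelihood ratio test.

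The tyrosinase-related protein 1 copies gave similar differences at unequal depth. ENSDARG00000056151, with 1339 to 2207 counts per library, was at 136.8, 151.2 and 154.1 CPM across wild-type replicates 1, 2 and 3, and at 119.2, 132.6 and 126.2 CPM in *miR-34a-/-* replicates 1, 2 and 3. ENSDARG00000029204 was at 17.0, 18.1 and 18.2 CPM and at 15.4, 16.2 and 14.8 CPM in the same order. In both, the mutant libraries were below all wild-type libraries. The log2 fold changes were -0.23 ± 0.08 (SE; edgeR adjusted p = 0.182) for ENSDARG00000056151 and -0.20 ± 0.10 (adjusted p = 0.394) for ENSDARG00000029204. Their 95% intervals, -0.39 to -0.06 and -0.42 to 0.03, both lie within the 1.5-fold limits. How reads that fit both copies were assigned is not stated.

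Transporters of the melanosome membrane had between 22 and 187 counts per library. *oca2*, a transport protein linked to melanosomal pH, was at 4.65, 3.88 and 5.70 CPM across wild-type replicates 1, 2 and 3, and at 2.85, 3.62 and 3.29 CPM in the mutant replicates, again without overlap. Its log2 fold change of -0.54 ± 0.21 (SE; 95% interval -1.02 to -0.07) was the lowest fitted value among the 10 genes, but the adjusted p-value was 0.265 in edgeR. The lowest library had 32 counts, for which counting error alone gives a 95% exact Poisson interval of 21.9 to 45.2.

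*slc24a5*, the cation exchanger mutated in *golden* zebrafish, was at 3.29, 3.31 and 2.85 CPM across wild-type replicates 1, 2 and 3, and at 3.38, 2.15 and 1.81 CPM in *miR-34a-/-* replicates 1, 2 and 3. As with *tyr*, mutant replicates 2 and 3 were below the wild-type range and mutant replicate 1 was not. The log2 fold change was -0.38 ± 0.27 (SE; edgeR adjusted p = 0.534), and -0.69 without mutant replicate 1 (adjusted p = 0.0904). *slc45a2*, the transporter mutated in *albino* zebrafish, was at 11.6, 10.5 and 10.2 CPM in wild-type and at 9.17, 11.6 and 9.54 CPM in mutant replicates. The ranges overlapped, with a log2 fold change of -0.10 ± 0.14 (SE; 95% interval -0.41 to 0.21, edgeR adjusted p = 0.782).

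**Figure D2:**
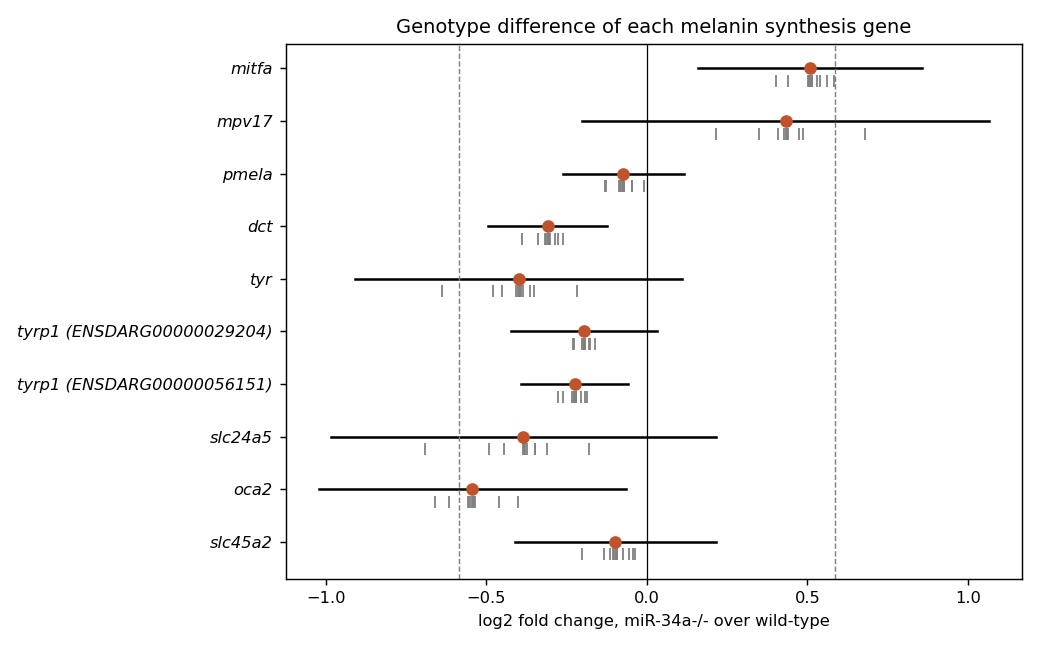
Log2 fold change of *miR-34a-/-* over wild-type for the 10 genes: points give the edgeR quasi-likelihood fit and black lines its 95% interval. Grey ticks give the value in each alternative that tested the gene, and dashed lines mark 1.5-fold; no point passes the dashed lines, and the intervals of *mitfa*, *dct*, *oca2* and *tyrp1* ENSDARG00000056151 do not include 0.

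In each of the 12 or 13 alternatives that tested a gene, its fold change kept the sign given above, for all 10 genes. In the reported fit 0 of the 10 genes came under an adjusted p-value of 0.05, against 2.6% of all genes tested. In the alternatives only *dct* and *mitfa* did so, in settings where more of all genes tested did: 15.6% without *miR-34a-/-* replicate 1 (both genes), 9.73% with the photoreceptor term (*dct*) and 5.05% with the likelihood ratio test (*dct*). The number called at the 1.5-fold threshold was 0 in all 13 alternatives, among them the fit without *miR-34a-/-* replicate 1, where 7.74% of genes tested were called. In that same setting, chosen after seeing the data, 7 of the 10 genes did not overlap between genotypes, beside 44.9% of all genes tested.

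The spread within a genotype differed between genes. Coefficients of variation among wild-type libraries ran from 3.64% for *dct* to 30.6% for *mpv17*, and among mutant libraries from 4.56% for *tyrp1* ENSDARG00000029204 to 33.9% for *slc24a5*. For *tyr* and *slc24a5* the mutant spread of 27.2% and 33.9% was above the counting error at their mean depth over all libraries, 13.9% and 17.1%. The same held for *dct* (9.87% against 3.39%), *pmela*, *slc45a2* and *tyrp1* ENSDARG00000056151. For *oca2* and *mpv17* the mutant spread of 11.9% and 10.5% was below the counting error of 14.2% and 20.4%, as it was for *mitfa* and *tyrp1* ENSDARG00000029204. Among wild-type libraries *tyr* (7.04%) and *slc24a5* (8.23%) were below that error, and *oca2* (19.3%) and *mpv17* (30.6%) above it. Each spread rests on only 3 libraries.

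The melanosomal genes were then summed within each library. The sum was 316.2, 341.1 and 346.4 CPM across wild-type replicates 1, 2 and 3, and 278.8, 309.1 and 277.7 CPM in *miR-34a-/-* replicates 1, 2 and 3. All mutant sums were below all wild-type sums, with means of 334.6 ± 16.1 and 288.5 ± 17.8 CPM (SD, n = 3) and a ratio of 0.862. No test was made on this sum, as its genes were chosen with results of these data known. Between 86.9% and 88.4% of the counts in the sum came from *dct*, *pmela* and *tyrp1* ENSDARG00000056151, so it mostly describes these genes. Relative to the sum, *mitfa* stood at 1.76%, 1.97% and 2.06% in wild-type and at 3.19%, 3.26% and 3.09% in mutant libraries. No test was made. The lack of overlap in this share follows from *mitfa* being higher and the sum lower in all mutant libraries, so it adds nothing to those values.

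Ratios between the genes with most counts were also taken, without a test. *pmela* per *dct* was 0.832, 0.892 and 0.867 across wild-type replicates 1, 2 and 3, and 1.11, 0.981 and 0.970 in mutant replicates, so that the genotypes did not overlap. As *dct* was itself lower in all mutant libraries, this ratio is not a result separate from the level of *dct*. The ratio of *tyrp1* ENSDARG00000056151 to *dct* overlapped, at 1.82 to 1.92 in wild-type and 1.88 to 2.08 in mutant libraries.

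Markers of the eye were measured beside these genes, since the pigment epithelium is the melanin-bearing tissue that *casper* larvae retain. Of the 14 tested pigment epithelium IDs 10 were fitted lower and 4 higher, and their median log2 fold change was -0.20. None was called, beside 1.88% of all genes tested. Of the 14, 5 were wholly lower and 1 wholly higher in the mutant, beside 10.2% and 11% of all genes tested. *rdh5*, a retinol dehydrogenase of the visual cycle, averaged 14.0 ± 2.2 CPM in wild-type libraries and 10.02 ± 0.43 CPM in mutant ones (n = 3; log2 fold change -0.47 ± 0.14 SE, edgeR adjusted p = 0.151). *mertka*, a receptor for the uptake of shed outer segments, was at 4.61 ± 0.48 and 6.97 ± 0.56 CPM (0.59 ± 0.17, adjusted p = 0.119). RPE65 (ENSDARG00000007480), OTX2 and *rgrb*, the IDs of this list with most counts, had log2 fold changes of -0.27, -0.06 and -0.12 and adjusted p-values of 0.678, 0.788 and 0.644. *rdh5* and *mertka* were singled out after their values were seen.

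The values of *miR-34a-/-* replicate 1 were set beside these. RPE65 (ENSDARG00000007480), the isomerase of the visual cycle, was at 32.0 CPM there, against 70.6 to 86.1 CPM in the other 5 libraries. The whole pigment epithelium list summed to 288.1 CPM in that library and to between 337.4 and 358.2 CPM in the others. Its IDs did not move together there. RPE65 (ENSDARG00000094752) and OTX2 were highest in that library, at 25.8 and 84.5 CPM, while *rgrb* was lowest, at 45.8 CPM. The list sum was not taken without RPE65 (ENSDARG00000007480), so its low value there does not show a lower level across the list. The sum of melanosomal genes was 278.8 CPM in that library and 277.7 CPM in mutant replicate 3, where the photoreceptor list was highest at 2409 CPM. Per CPM of the pigment epithelium list, the melanosomal genes stood at 0.897, 0.959 and 0.967 across wild-type replicates 1, 2 and 3, and at 0.968, 0.916 and 0.809 in mutant replicates, which overlapped. Reads of this list, OTX2 among its leading IDs, could come from other cells of the whole larva. Its sum and this ratio are therefore not a measure of the pigment epithelium alone. The part of pigment epithelium content in the lower melanosomal levels was not tested. Lens crystallins, which summed to between 6670 and 7778 CPM, overlapped between genotypes. Among them *crygm2d1* was the exception with an adjusted p-value under 0.05 (log2 fold change -0.45 ± 0.09 SE, edgeR adjusted p = 0.0259), a level it kept in 8 of 13 alternatives.

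**Figure D3:**
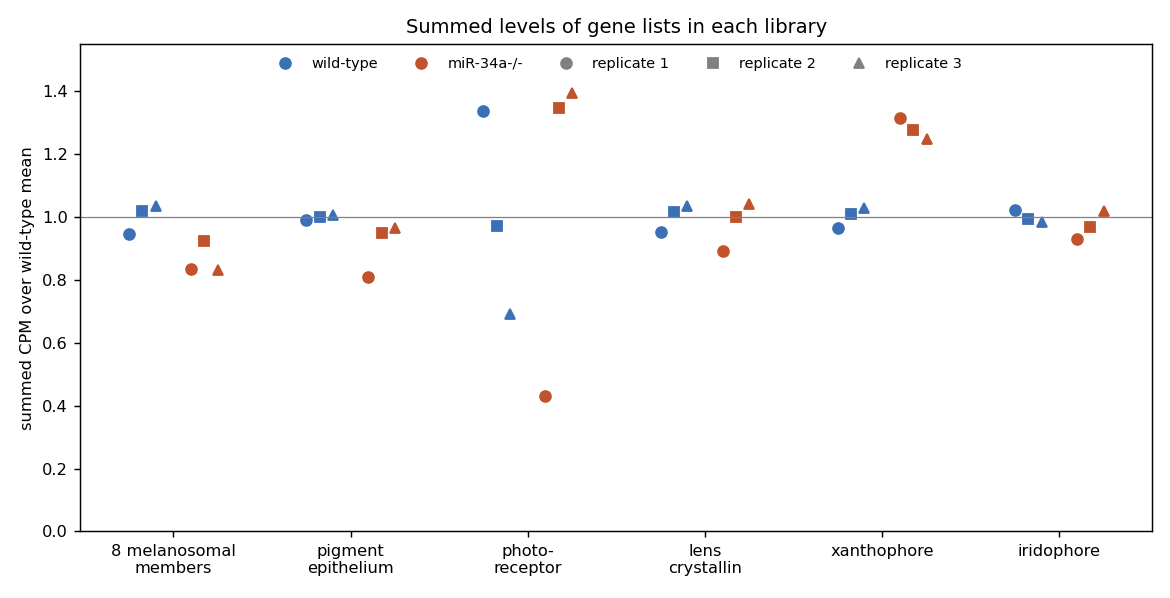
Summed CPM of the 8 melanosomal genes and of 5 marker lists in each library, divided by the wild-type mean of the same list (linear axis from 0; wild-type blue, *miR-34a-/-* orange, replicates by symbol). The melanosomal and pigment epithelium sums are lower in all mutant libraries, and the xanthophore sum is higher in all of them. In the xanthophore list *gch2* averaged 78.2 CPM in wild-type and 120.2 CPM in mutant libraries, beside list sums of 174.5 and 223.2 CPM. Mutant replicate 1 is lowest in the photoreceptor sum. The sum of the melanosome biogenesis and transport list, not drawn, was also lower in all mutant libraries. In that list *pmelb* averaged 87.8 CPM in wild-type and 65.7 CPM in mutant libraries, beside list sums of 877.0 and 854.0 CPM.

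Other genes of the melanosome pathway were taken from a fixed list of biogenesis and transport factors, which include the subunits of the AP-3, BLOC and HOPS complexes, Rab proteins and myosins. Of 38 tested, 0 were called, beside 1.88% of all genes tested. Of these 38, 18 were fitted higher and 20 lower, and their median log2 fold change was -0.02. The summed level of this list was nevertheless lower in all mutant libraries, at 845.6 to 862.1 CPM against 871.9 to 882.1 CPM in wild-type (ratio 0.974). In this list *pmelb* averaged 87.8 CPM in wild-type and 65.7 CPM in mutant libraries, beside list sums of 877.0 and 854.0 CPM. The sum was not taken without *pmelb*, so it does not show a lower level across the list. The exception below an adjusted p-value of 0.05 was AP3M1, a subunit of the AP-3 adaptor that carries cargo to melanosomes. It was higher in the mutant, from 34.9 ± 2.2 to 46.1 ± 3.4 CPM (n = 3; log2 fold change 0.40 ± 0.09 SE, edgeR adjusted p = 0.0391), and came under 0.05 in 7 of 13 alternatives. With *pmelb*, the genes of the list with most counts were CD63, a tetraspanin of endosomes and melanosomes, and the AP-3 subunit *ap3s2*. They had log2 fold changes of 0.06 ± 0.10 and 0.08 ± 0.08 (SE).

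Genes of the melanophore lineage and its hormones divided evenly in sign, with 8 of 16 tested fitted higher and 8 lower and a median log2 fold change of -0.03. None was called, beside 1.88% of all genes tested. The mutant was wholly higher for 4 and wholly lower for 4, beside 11% and 10.2% of all genes tested. At an unadjusted edgeR p-value under 0.05 there were 4 higher and 3 lower of the 16. Over all 19240 genes tested, 1566 were higher and 1386 lower at that level, 15.3% in both directions together. The genes of this list with most counts were TFAP2A, TFAP2E and SOX10, transcription factors used by several neural crest derivatives and other tissues. SOX10, which acts upstream of *mitfa* in the neural crest, averaged 34.4 ± 1.4 CPM in wild-type libraries and 40.4 ± 3.4 CPM in mutant ones (n = 3; log2 fold change 0.24 ± 0.09 SE, edgeR adjusted p = 0.223). TFAP2E was at 39.4 ± 2.5 and 33.4 ± 1.8 CPM (-0.24 ± 0.08, adjusted p = 0.208), and TFAP2A had a log2 fold change of -0.08 ± 0.08. MC1R, the melanocortin receptor of melanophores, was at 0.60 ± 0.36 and 0.70 ± 0.52 CPM and fell under the filter. Of the 23 IDs of the list, 1 was at 0 in all libraries.

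Genes of the other pigment cells of the skin were also counted. Of 11 tested xanthophore genes 1 was called, beside 1.88% of all genes tested. It was *gch2*, the first enzyme of pteridine synthesis, which rose from 78.2 ± 4.9 to 120.2 ± 2.4 CPM (n = 3, log2 fold change 0.62 ± 0.07 SE, edgeR adjusted p = 0.00131). Its adjusted p-value stayed under 0.05 in all 13 alternatives. *aox5* and BCO1, the next by counts, had log2 fold changes of 0.37 ± 0.12 (adjusted p = 0.182) and -0.09 ± 0.13. None of the 13 tested iridophore genes was called, beside the same 1.88%. Those with most counts were the purine synthesis genes PAICS, ATIC and GART, which all cells use, with log2 fold changes from -0.14 to 0.18. As the *roy* mutation of *casper* fish removes iridophores, this list is not a measure of those cells. Whether the xanthophore and melanosomal genes differ in response was not tested.

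**Figure D4:**
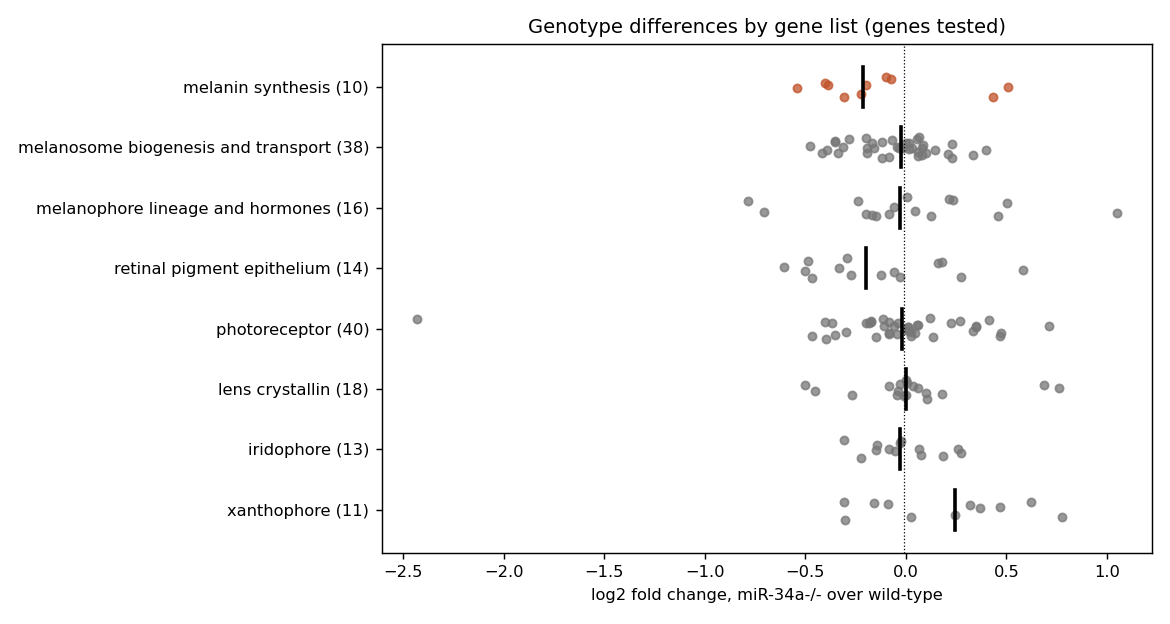
Log2 fold change of *miR-34a-/-* over wild-type for every gene tested in each list, with the number tested in brackets; bars mark the list's median and the dotted line the median of all genes tested (-0.01). The medians of the melanin synthesis (-0.21) and pigment epithelium (-0.20) lists lie to the left of the others and that of the xanthophore list (0.24) to the right.

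Finally, genes with a similar pattern over the 6 libraries were sought among the 17430 genes whose average log2 CPM was 1 or more. Likeness was the root mean square difference between log2 CPM profiles, each centred on its mean. Nearest to the mean profile of the 8 melanosomal genes were *ccdc141*, DOP1B, *si:ch73-266f23.2*, SLC2A13 and SIRT3, with differences of 0.02 to 0.03. Their log2 fold changes ran from -0.29 to -0.23 and the lowest adjusted p-value was 0.112. Nearest to *tyr* were TRIM2, ENSDARG00000099568 and BRINP1, at 0.04 to 0.05. Close matches are easy to find among so many genes in 6 libraries, and the order is given only as a description.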

How the data were processed

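Raw counts per Ensembl gene in 6 libraries were deposited by the authors; the counts had been made from reads trimmed with Trim Galore 0.4.4 and mapped with STAR 2.7.8 to danRer11 (GRCz11). Counting mode, use of strand, treatment of reads with several matches and annotation release are not given in the sources used here. In R 4.3.3, filterByExpr took out weakly counted genes, TMM scaled the library sizes, and genotype was tested in edgeR 4.0.16 (quasi-likelihood test, no covariate, Benjamini-Hochberg over all 19240 genes tested). The standard error of a log2 fold change was taken from its F statistic. log2 CPM used a prior count of 1. DESeq2 1.42.0 served as an alternative; fits were tested on simulated data.

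The 10 genes and the companion lists were chosen with earlier results of these data known. Symbols came from a table pairing IDs with names. A listed symbol without an exact match was matched, after the names and before the list values were seen, to all IDs bearing its human-style name (as for both TYRP1 IDs). This leaves copies such as the 3 IDs named RPE65 unresolved. Named genes were all 10 genes, the 3 genes with most counts and the called genes of each list, and the nearest profiles; others are marked or stand out by an adjusted p-value under 0.05, and *pmelb*, MC1R and the second MITF ID serve the account of the group. By counts the leading lens genes were CRYBB1, *crybb1l1* and *crybb1l2*. The leading photoreceptor genes are not reported here.

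Replicates are separate pools, and p-values set the genotype difference against the spread between pools. As the mutant was kept as a separate line, effects of the deletion and of other differences between the lines cannot be told apart. Total counts of 10273343 to 16369150 make 3 counts worth 0.186 to 0.293 CPM. Intervals from counts cover counting error only. Libraries of 1 genotype differed beyond sampling noise in every pair (chi-square per degree of freedom 1.78 to 13.4). The highest of these was between *miR-34a-/-* replicates 1 and 3. Mutant replicate 1 was at 7.00 from mutant replicate 2 and at 6.18 from wild-type replicate 3. Alternatives were DESeq2 size factors, no filter, a mean of at least 50 counts, the likelihood ratio test of edgeR, the Wald test of DESeq2, a replicate block, a photoreceptor term, and leaving out each library. No sequences or coordinates are shown, as none of the files' build was used here.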

Additional observations from a re-analysis of the deposited data

How the results depend on the processing

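The number of melanin synthesis genes called was 0 in all 13 alternatives. With no fold threshold, the number of the 10 below an adjusted p-value of 0.05 was 0 in the reported fit, 1 with the likelihood ratio test, 1 with the photoreceptor term and from 0 to 2 when single libraries were left out, the 2 (*dct* and *mitfa*) coming without *miR-34a-/-* replicate 1. Over all genes, 362 were called, 217 with a mean of at least 50 counts (which left *mpv17*, *slc24a5* and *oca2* untested), 627 with the likelihood ratio test, 850 with the photoreceptor term and from 180 to 1504 with single libraries left out, the highest without *miR-34a-/-* replicate 1, where the biological coefficient of variation was 6.76% in place of 10.9%. The labels do not say whether libraries that share a replicate number belong together, and the reported fit did not pair them. Their deviations from the genotype means had correlations of -0.067, 0.0012 and -0.18. The replicate block gave 216 called genes.

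In the companion lists, where 0 or 1 gene was called, leaving out single libraries gave from 0 to 2 for melanosome biogenesis, 0 to 2 for the melanophore lineage, 0 to 1 for pigment epithelium, 0 to 8 for photoreceptors, 0 to 1 for lens, 0 to 1 for iridophores and 1 to 3 for xanthophores. The likelihood ratio test gave 1 photoreceptor and 2 xanthophore genes, the photoreceptor term 1 pigment epithelium, 2 photoreceptor, 1 lens and 2 xanthophore genes, and no filter 1 photoreceptor gene. Of all genes tested, these 3 settings called 3.26%, 4.42% and 1.97%, and leaving out single libraries called from 0.925% to 7.74%. AP3M1 lost significance with the replicate block and without any single library other than mutant replicate 1, its adjusted p-value reaching 0.206. In CPM on the total count, the levels of the 10 genes and their melanosomal sums (then 340.7 and 282.6 CPM) moved by less than 1 SD. Of the other list sums, the wild-type pigment epithelium sum moved by more than that, from 355.6 to 362.1 CPM, as did those of melanosome biogenesis, from 877.0 to 893.0 CPM in wild-type and from 854.0 to 836.3 CPM in the mutant. The 95% intervals of *mpv17*, *slc24a5*, *oca2*, *tyr* and *mitfa* reach past 1.5-fold, so that a change of that size was not resolved at this depth and number of libraries.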
